A study of Zea mays with 27 samples.

Results

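HRGP and expa2 are a pair of maize genes for cell wall proteins, and 11 cDNA probes of the array carried them. The probes were all those that the platform's gene table gave to LOC542371 (synonym HRGP, 8 probes) or to LOC542648 (synonym expa2, 3 probes) and to no second gene. They were 11 of 18303 probes with values, and of 1607 probes with 1 named gene, which covered 532 genes. The genes were chosen by the wide variation of single probes over these same arrays. The spreads of the probes therefore describe that choice, and no test is put on them.

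Hydroxyproline-rich glycoproteins are secreted wall proteins whose prolines are hydroxylated and then carry short sugar chains. They can be cross-linked in the wall, largely through peroxidases, and this is linked to a stiffer wall. Alpha-expansins act in the opposite sense. They loosen the wall at acid pH by weakening contacts between cellulose and other polysaccharides, without cutting them, so that a growing cell can extend.

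The study compared the maize inbred lines B73 and Mo17 with their F1 hybrid, for which Mo17 was the female parent, using 2-colour cDNA arrays. Seed came from 3 ears of each genotype. RNA came from above-ground tissue of seedlings aged 14 days, and each RNA pool held 6 seedlings of a genotype. Of 10 replications grown in randomized blocks, 1 was dropped for quality, and each of the other 9 gave 3 arrays that paired the 3 genotypes in a loop with Cy3 and Cy5 alternated. The 27 arrays are called S1 to S27 here. Only the Cy3 channel of S1 has its genotype (F1) in the labels used here, so no array was placed in a comparison and nothing below contrasts B73, Mo17 and F1. In pools of mixed above-ground tissue, fewer cells of a type and less RNA per cell cannot be told apart.

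Each value is a log ratio of the channels of an array, read as a natural log and given on the log2 scale, relative to that array's median over all probes. A value of 1 is thus a 2-fold distance from the median. The interquartile range of an array ran from 0.40 (S9) to 1.57 (S19), with a median of 0.75 over arrays. Which channel is the numerator is unknown, so above and below the median have no genotype or dye attached. Whether probes lie on the same side of the median on the same array does not depend on the numerator. Nor does the correlation about the array median, which takes deviations from that median instead of from a probe's own mean. Pearson and Spearman correlations, spreads and probe medians could change if the numerator differed between arrays, and whether it did is unknown. Ratios hold no level, so the labelled tissue could not be checked by markers. On S1 to S15, the first set, at least 2% of probes shared a single repeated value, the most frequent one of the array. On S16 to S27, the second set, fewer did, and results are given in each set. Each RNA pool was on 2 arrays of its loop by the design, so arrays are not independent samples, and correlations over arrays are descriptions with no p.

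All 8 HRGP probes reached a spread of 1 (2-fold), where the spread is the 90th minus the 10th percentile of a probe over the 27 arrays. This threshold was passed by 79.2% of all probes and by 65% of probes with 1 named gene, so that most probes of any gene pass it. By the interquartile range, which is narrower, 3 of the 8 reached 1, against 25.2% of all probes and 14.6% of those with 1 named gene. A spread of 1.5 was reached by 4 of the 8, against 51.7% and 29.7%. The median spread was 1.48 over the HRGP probes, against 1.54 over all probes and 1.17 over probes with 1 named gene. The median HRGP probe was thus close to the median of all probes, and 2 of the 8 were far wider.

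The widest was HRGP probe 11623, with a spread of 6.41, wider than 99.5% of all probes. Its values ran from -6.95 (S19) through a median of -0.26 to 5.93 (S3). They lay at least 2-fold from the array median on 21 arrays, 15 of 27 arrays were below the median, and the second highest value was 2.35 (S25). The probe was at the repeated value on S2 only. The spread was 4.70 in the first set and 6.98 in the second set.

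The next widest was HRGP probe 1219, with a spread of 3.72. It ran from -1.94 (S1) through a median of 0.46 to 3.40 (S8), and it was above the array median on 19 arrays. Its spread was 4.04 in the first set and 2.56 in the second set. These 2 probes stood apart from the other 6 HRGP probes, whose spreads ran from 1.15 to 1.88.

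Among those 6, probe 2928 ran from -1.34 (S1) through -0.13 to 1.71 (S6), with a spread of 1.88. Probe 11346 ran from -1.23 (S19) through 0.06 to 1.23 (S24), with a spread of 1.52. Probe 12546 ran from -1.25 (S4) through 0.03 to 1.02 (S6), with a spread of 1.44. Medians near the array median thus went with single values at least 2-fold away on either side. Probe 2499 ran from -1.60 (S27) through -0.14 to 0.85 (S20), with a spread of 1.31. Probe 7943 ran from -0.87 (S26) through 0.11 to 2.05 (S27), with a spread of 1.27. Probe 12150 ran from -1.45 (S19) through -0.20 to 0.78 (S6), with a spread of 1.15, and lay closest to the 2-fold threshold of the HRGP probes. None of these 6, nor probe 1219, was ever at the repeated value of an array.

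The expa2 probes differed far more among themselves. Probe 6065 was among the steadiest of the array, with a spread of 0.61, wider than 1.41% of all probes. It ran from -0.45 (S11) through 0.01 to 0.82 (S3) and never lay 2-fold from the median. Probe 6334 ran from -5.69 (S3) to 7.59 (S6), the widest range of the 11 probes, yet its spread was 2.39 because 4 arrays carried these extremes. They were S3 and S5 (-4.98) below and S6 and S27 (6.51) above. Probe 13013 had a spread of 4.25 and ran from -3.53 (S23) to 2.80 (S27), with 9 arrays at least 2-fold from the median. The percentile-based spread thus ranked probe 13013 above probe 6334, whereas the full range ranked them the other way.

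**Figure D1:**
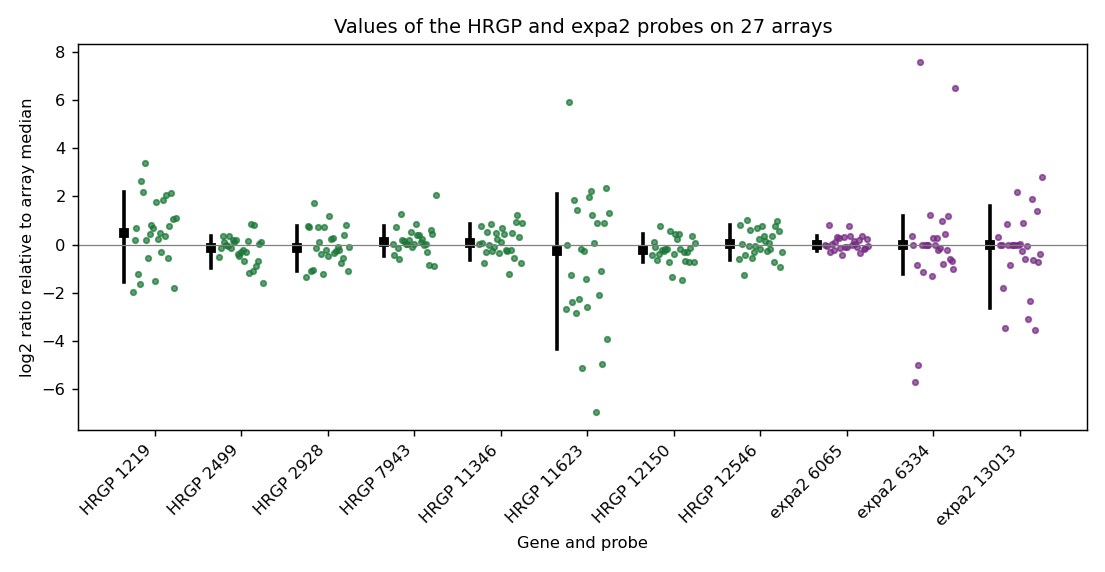
Log2 ratio relative to the array median (vertical axis) of each of the 11 probes (horizontal axis) on 27 arrays; dots are arrays in the order S1 to S27, the bar beside them joins the 10th and 90th percentiles and the square is the median. HRGP 11623 and expa2 13013 have the longest bars, while the highest dots of expa2 6334 are single arrays at 6.51 and 7.59 and expa2 6065 stays between -0.45 and 0.82.

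Both wide expa2 probes were at the repeated value on several arrays of the first set. For probe 6334 this was so on 5 arrays (S2, S7, S9, S10 and S11), and for probe 13013 on 7 (the same 5, S3 and S13). There the values lay at or next to the array median, and the median of both probes was 0. With such values left out, the spread of probe 13013 was 5.05 and that of probe 6334 was 2.48. In the first set the spread was 4.37 for probe 6334 and 2.05 for probe 13013, and in the second set it was 1.95 and 4.86, so the order of the pair was reversed between the sets. Probe 6065 held no such value, and had 0.86 and 0.53 in the sets.

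The HRGP probes mostly moved together. Over the 28 pairs of HRGP probes the mean Pearson correlation across 27 arrays was 0.35 (Spearman 0.37), and 23 of 28 pairs were above 0, against 64.8% of 3606 pairs of probes of the same gene. A correlation of at least 0.5 was found in 10 of the 28 pairs, against 17.3% of same-gene pairs and 4.66% of 956199 pairs of probes of different genes. The highest was 0.76 between probes 2928 and 12546 (Spearman 0.73), which lay on the same side of the median on 22 arrays. Probes 1219 and 12546 had 0.72, and probes 11346 and 12546 had 0.71. Pairs that share a gene are not independent of each other, and the gene of a probe is as the gene table gives it, since cDNA probes can bind transcripts of related genes.

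Among 146 genes with at least 3 probes, HRGP ranked 16th by this mean, and the median gene had 0.10. Among 78 genes with at least 5 probes it ranked 9th. The mean was 0.44 in the first set and 0.28 in the second set. With runs of 400 spots in table order, taken as printing blocks, each centred, it was 0.38, and with each spot centred on its 40 nearest spots it was 0.39. The 8 HRGP probes lay in 8 different blocks, so none shared a block with another. Probes 11346 and 12546, in blocks 29 and 32, had the same place in their blocks (146), and the part of this was not tested. Leaving out 1 array gave a mean of 0.31 (without S6) to 0.38 (without S27). The correlation about the array median had a mean of 0.31 over the same pairs.

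**Figure D2:**
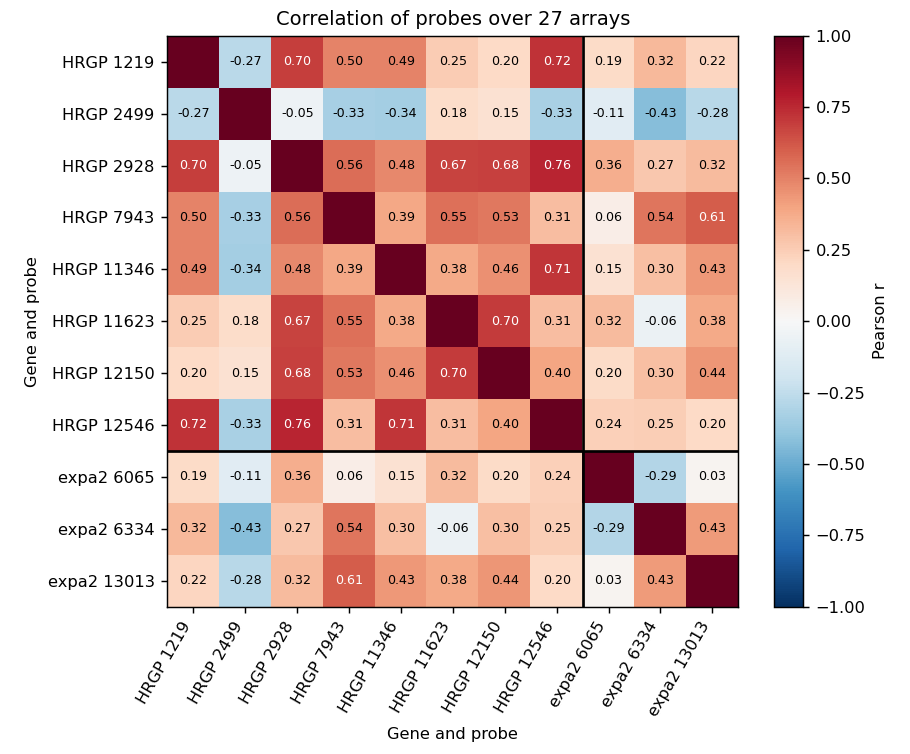
Pearson correlation over 27 arrays between each pair of the 11 probes, with HRGP above and to the left of the black lines; red is positive and blue negative. The 7 HRGP probes other than 2499 form a red square with values from 0.20 to 0.76, the row of HRGP 2499 is mostly blue, and the 3 expa2 probes range from -0.29 to 0.43 among themselves.

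The exception was HRGP probe 2499. Its correlations with the other 7 HRGP probes had a mean of -0.14 and ran from -0.34 (probe 11346) to 0.18 (probe 11623), and 2 of 7 were above 0. Against the median of the other 7 probes it lay on the opposite side on 19 of 27 arrays (r = -0.23, Spearman -0.18). The correlation was -0.0047 in the first set and -0.41 in the second set. Array by array, probe 2499 was lowest on S27 (-1.60), S19 (-1.16) and S21 (-1.11), and on S27 probe 7943 stood at 2.05. The probe also followed its surroundings on the array, with r = 0.63 against the median of its 40 nearest spots, where the other 10 probes had -0.35 to 0.57. After that median was removed its spread was 0.87, and its mean correlation with the other HRGP probes was -0.29.

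Without probe 2499, a choice made after its values were seen, all 21 pairs of the other 7 HRGP probes were above 0, from 0.20 to 0.76, with a mean of 0.51 (Spearman 0.56). The mean was 0.59 in the first set and 0.45 in the second set, and with nearest spots centred it was 0.61. About the array median it was 0.47. These 7 probes lay all on the same side of the median on 8 of 27 arrays. On S6, S15, S16 and S25 all 7 were above, and on S4, S5, S22 and S26 all 7 were below. All 8 agreed on S25 (above) and S5 (below) only.

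The widest probe was no exception in direction. Probe 11623 had a mean correlation of 0.44 with the other HRGP probes, above 0 in 7 of 7 pairs, with the highest for probes 12150 (0.70) and 2928 (0.67). It lay on the same side as the median of the other 7 probes on 20 of 27 arrays (r = 0.61, Spearman 0.70), with 0.55 in the first set and 0.70 in the second set. What set it apart was size. Its fitted change was 3.52 for each unit of the other probes' median, against 1.48 for probe 1219 and 0.56 to 0.62 for probes 7943, 11346, 12150 and 12546. Without probe 11623 the mean over the other 21 pairs was 0.32, and the median spread of HRGP was 1.44. The agreement among HRGP probes thus did not rest on its widest probe.

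The array-by-array plot shows this shared pattern. On S6, 7 HRGP probes stood between 0.53 and 2.64 above the median, while probe 2499 was at -0.07. On S26, 7 were between -0.70 and -3.91, while probe 2499 was at 0.09. On S19 the probes split, with probe 1219 at 1.85 and probe 11623 at -6.95.

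**Figure D3:**
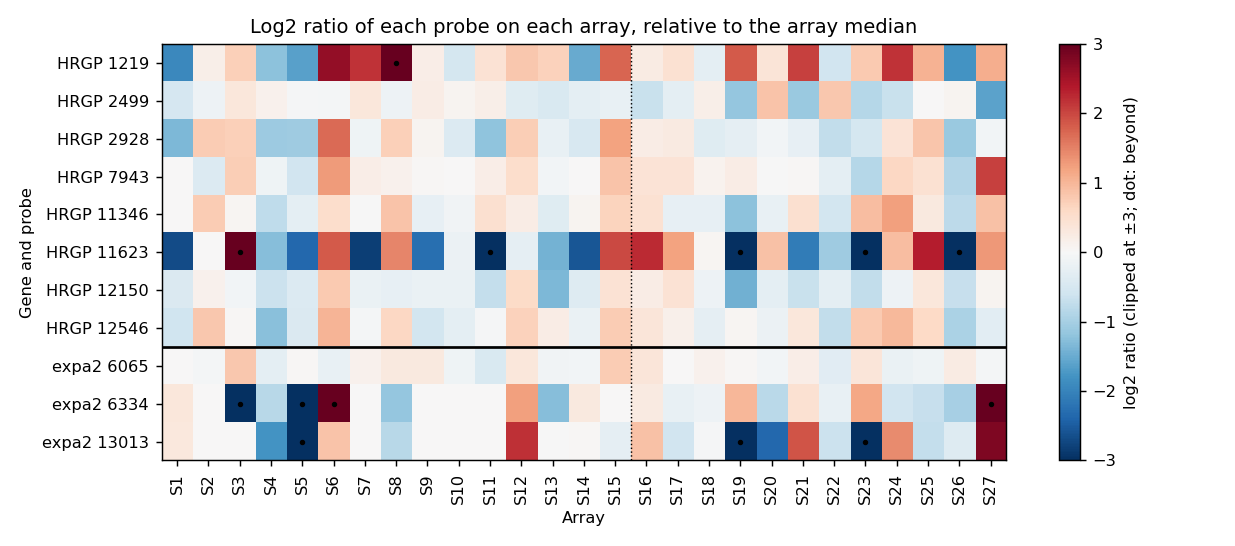
Log2 ratio relative to the array median of each probe (rows) on arrays S1 to S27 (columns), with colours clipped at 3 in either direction, a dot on clipped values, and a dotted line between S15 and S16. On S6, S15, S16 and S25 the HRGP rows other than 2499 are all red, and on S4, S5, S22 and S26 all blue; white runs in the lower 2 expa2 rows on S1 to S15 include values at the array's repeated value.

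The median over the 8 HRGP probes, used as the profile of the gene, ran from -0.92 (S4) to 1.15 (S6), with a spread of 1.38. Next to the ends were S26 at -0.91 and S15 at 0.81. The absolute value of the profile had r = 0.36 (Spearman 0.39) with the interquartile range of the array, and the part of array width in its size was not tested.

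The 3 expa2 probes agreed less than the HRGP probes did in these values. The mean over their 3 pairs was 0.05 (Spearman 0.19, about the array median 0.04), and expa2 ranked 95th of the 146 genes. Probes 6334 and 13013 lay on the same side on 17 of 27 arrays. On S2, S3, S7, S9, S10 and S11 probe 13013 was exactly at the median, so these arrays could not count. The pair had r = 0.43 (Spearman 0.49), with 0.56 in the first set and 0.38 in the second set. That value was 0.23 without S6 and S27, the arrays on which probe 6334 was farthest from its median, and 0.29 without S27 alone. Over the 20 arrays on which neither was at the repeated value it was 0.52.

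Probe 6065 was close to neither of them in the centred values. It had r = -0.29 with probe 6334 (Spearman 0.08) and 0.03 with probe 13013 (Spearman -0.0034). The first of these rested on S3, where probe 6065 was at 0.82 and probe 6334 at -5.69, and was -0.09 without that array. Leaving out the widest probe, 13013, left only this pair, so the agreement within expa2 fell from 0.05 to -0.29. The expa2 values depended on local centring. With blocks of spots centred all 3 pairs were above 0, with a mean of 0.26, against a mean of 0.17 over same-gene pairs treated alike. Probe 6065 then had 0.26 with probe 13013 and 0.08 with probe 6334, which lay in the same block. With nearest spots centred these were 0.20 and 0.12, and the mean over the 3 pairs was again 0.26.

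**Figure D4:**
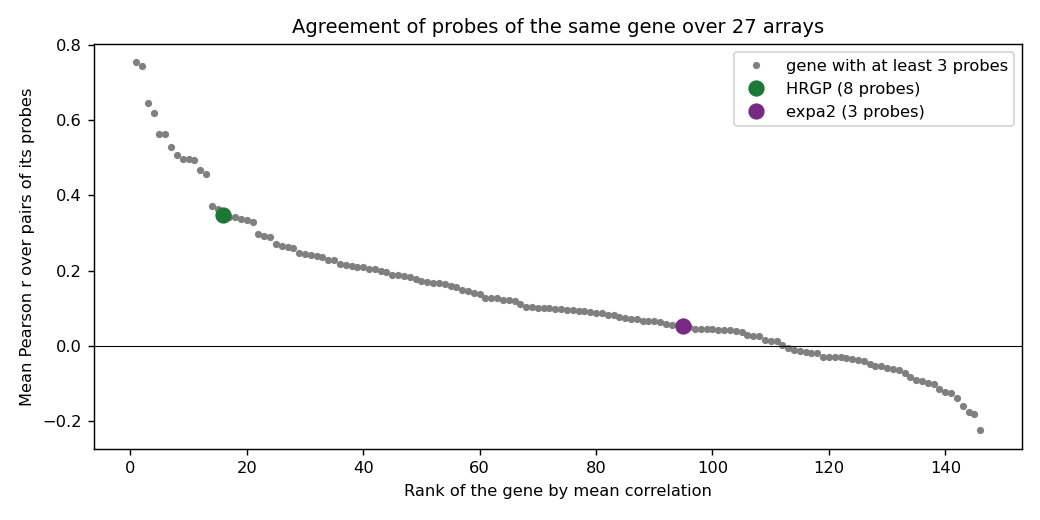
Mean Pearson r between probes that share a gene (vertical axis) for 146 genes with at least 3 probes, ordered from highest to lowest (horizontal axis). HRGP, with 8 probes, lies at rank 16 with 0.35, and expa2, with 3 probes, at rank 95 with 0.05.

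With all probes kept, the genes were weakly related to each other. The profiles of HRGP and expa2, each the median over the gene's probes, had r = 0.32 and Spearman 0.20 over 27 arrays. About the array median the correlation was also 0.32. The profiles lay on the same side of the median on 12 arrays, on opposite sides on 9, and on 6 the expa2 profile was exactly at the median. On those 6 arrays, all of the first set, 1 or 2 expa2 probes were at the repeated value. With repeated values left out the profiles had r = 0.22. With all values kept, the correlation was 0.44 (Spearman 0.34) in the first set and 0.22 (Spearman 0.01) in the second set. Without S6 and S4, the arrays on which the HRGP profile was farthest from its median, it was 0.24 and Spearman 0.02. The relation in ranks therefore rested on those arrays. Without HRGP probe 2499 the profiles had r = 0.41 (Spearman 0.28), with 0.44 in the first set and 0.38 in the second set. With S6 and S4 also left out, it was 0.34 (Spearman 0.12). Without probe 2499 and expa2 probe 6334, the correlation over 27 arrays was 0.56. Both omissions were chosen after the values were seen.

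Without the widest probe of each gene the profiles had r = 0.31 and Spearman 0.18, with 15 arrays on the same side and 12 on opposite sides. That value rested on S6, where the HRGP profile was at 1.02 and the expa2 profile at 3.68, and was 0.09 without it. In the second set it was 0.02 (Spearman -0.21), against 0.51 (Spearman 0.41) in the first set. Among 257 other genes with at least 2 probes, expa2 ranked 61st in likeness to HRGP, and HRGP ranked 23rd in likeness to expa2.

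**Figure D5:**
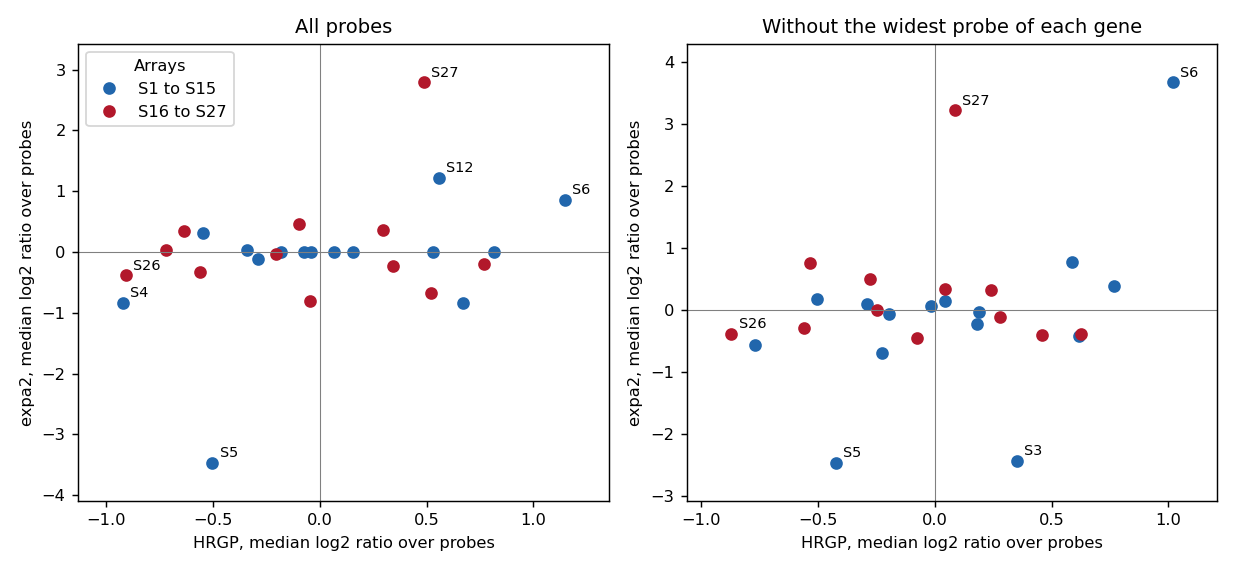
Median log2 ratio over the expa2 probes (vertical axis) against that over the HRGP probes (horizontal axis), 1 point per array, in blue for S1 to S15 and red for S16 to S27, with all probes on the left and without the widest probe of each gene on the right. The expa2 axis is set by S5 and S27 on the left (-3.47 and 2.80) and by S3, S5, S6 and S27 on the right, with the other arrays between -0.84 and 1.22 in both panels.

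Of the 24 pairs of an HRGP and an expa2 probe, 20 were above 0, against 50.9% of pairs of different genes. Their mean was 0.22 (Spearman 0.15, about the array median 0.21). By arrays on the same side, the median pair had 13 (range 5 to 17), and the median over pairs of different genes was also 13. An array with a probe exactly at the median counts for neither side. Probe 6334 was above on 10 arrays and below on 12, and probe 13013 on 8 and 13, so their counts are out of fewer than 27 arrays. For probe 6065, above on 15 arrays and below on 12, the median pair had 14 (range 11 to 17). A correlation of at least 0.5 was found in 2 of the 24, against 4.66% of pairs of different genes. Both were with HRGP probe 7943, at 0.61 for probe 13013 and 0.54 for probe 6334. With blocks of spots centred these were 0.20 and -0.03, and with nearest spots centred 0.47 and 0.54. Without S6 and S27 they were 0.48 and -0.01. HRGP probe 2499 was below 0 with all 3 expa2 probes, at -0.43, -0.28 and -0.11. In the first set the mean over the 24 pairs was 0.31, with 21 above 0, and in the second set it was 0.05, with 13 above 0. The 24 pairs share 11 probes and 27 arrays and are far from independent.

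The 5 genes with a profile most like that of HRGP included no wall structural protein. Of the wall structural proteins listed below, only expa2 and expB8 had the 2 probes a profile needs, so few could be found. Closest was LOC541649 (eIF-4A), an RNA helicase of translation initiation, with r = 0.73 (Spearman 0.76) over 27 arrays. It was followed by LOC542365 (sh1), a sucrose synthase, with 0.71, and LOC542418 (tub5), a beta-tubulin, with 0.69. LOC542367 (GAPC1), a cytosolic glyceraldehyde-3-phosphate dehydrogenase, had 0.69, and LOC542733 (sam2), an S-adenosylmethionine synthetase, had 0.67. Each of these 5 lay on the same side as HRGP on 21 to 24 arrays, and the lowest value in either set of arrays was 0.62 (sam2, the first set). The choice of the closest 5 was less steady, since 1 of them was among the closest 5 in the first set alone and 2 in the second. Over the 257 genes the median was 0.09, and 27 genes had at least 0.5. At the other end were LOC542370 (CAT3), a catalase, with -0.62, LOC100125656 with -0.54, and LOC732821 (PPP2R5B), a regulatory subunit of protein phosphatase 2A, with -0.52.

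The genes most like expa2 mostly rested on few arrays. LOC542549 (DWF1), known from brassinosteroid synthesis, had r = 0.69 but Spearman 0.40. Its r was 0.88 in the first set and 0.37 in the second, 0.40 without S5, and 0.21 with nearest spots centred. LOC732723 (Rbl1), of the retinoblastoma-related family, had 0.59, with 0.28 in the first set, 0.89 in the second, and 0.27 without S27. LOC541668 (rpl30), a ribosomal protein, had 0.55, with 0.65 and 0.68 in the sets, and 0.20 without S5. LOC541854 (wx1), the granule-bound starch synthase, had 0.53 (Spearman 0.55) with 0.59 and 0.41 in the sets, and kept at least 0.47 when any 1 array was left out. LOC541821 (hir3) had 0.50, with -0.03 and 0.86 in the sets, and -0.02 without S27. At least 0.5 was reached by these 5 of 257 genes, and the median was 0.02. The lowest was IPP with -0.58, which was -0.25 in the first set, -0.88 in the second, and -0.13 without S27. LOC542569 (dbf1) had -0.43, with -0.35 and -0.56 in the sets. LOC542340 (arpp2b), an acidic ribosomal protein, had -0.40, with -0.21 and -0.60 in the sets, and -0.23 without S27.

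Other wall genes were set beside the pair from lists matched by symbol. Of wall structural proteins, only the beta-expansins LOC542106 (EXPB9) and LOC542496 (expB8) had probes besides HRGP and expa2. EXPB9 had a spread of 3.33 and r = 0.19 with the HRGP profile and 0.03 with that of expa2. Its probe was at the repeated value on 6 arrays. The probes of expB8 had spreads of 1.16 and 1.07, with r = 0.31 and -0.18 to HRGP.

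All 12 probes of wall crosslinking genes, the peroxidases and the lignin pathway, reached a spread of 1, with a median of 2.69. Over probes with 1 named gene that share was 65% and the median 1.17, and the counts of the lists below stand against the same share. The widest were LOC542571 (pox2), a peroxidase, at 5.46, LOC542166 (4CL), a coumarate ligase, at 4.91, and the peroxidase PER42 at 4.57, with r = 0.13, -0.22 and 0.18 to HRGP. The 4CL probe was at the repeated value on 15 arrays, that of PER42 on 3 and that of pox2 on 2. Over the list, 10 of 12 probes were above 0 with HRGP and 5 of 12 with expa2. Over all other probes with 1 named gene the shares were 57.3% and 48.1%. The median r of the list to HRGP was 0.16, against 0.06 over those probes.

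Cellulose and wall polysaccharide genes had 16 of 20 probes at a spread of at least 1, with a median of 1.43. Their 3 widest probes, of LOC541793 (Bk2L3), LOC541807 (CesA-9) and LOC541806 (cesa8), had r = 0.20, 0.09 and 0.17 to HRGP. The Bk2L3 probe was at the repeated value on 4 arrays and the CesA-9 probe on 7. In this list 16 of 20 probes were above 0 with HRGP, with a median of 0.26, and 9 of 20 with expa2, with a median of -0.03. Over all 1599 other probes with 1 named gene, 57.3% were above 0 with HRGP and the median was 0.06. For expa2, over 1604 other probes, the values were 48.1% and -0.01.

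Cortical cytoskeleton genes, the tubulins, profilins and actin-depolymerizing factor, had 37 of 63 probes at a spread of at least 1, with a median of 1.08. Of the 63 probes, 50 were above 0 with HRGP (median 0.25), against 57.3% of all other probes with 1 named gene. With expa2, 37 of 63 were above 0 (median 0.03), against 48.1%. Their widest probes, of LOC542416 (tub3), LOC542705 (tub7) and LOC542417 (tub4), had r = 0.04, 0.08 and -0.03 to HRGP. The tub3 probe was at the repeated value on 10 arrays. Aquaporins, the water channels that serve turgor, had 16 of 23 probes at a spread of at least 1, with a median of 1.35. With HRGP 15 of 23 were above 0 (median 0.05), and with expa2 11 of 23 (median -0.01), against the same 57.3% and 48.1%. Their widest probes ranged from r = -0.62 to HRGP for LOC541891 (PIP2-6) and -0.20 for LOC541886 (PIP1-3) to 0.53 for LOC542497 (Lsi6), a silicon channel. The Lsi6 probe also had 0.59 to expa2. Probes of a list share genes and arrays, and these counts are descriptions.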

How the data were processed

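Maize RNA pools were hybridised to 27 two-colour cDNA arrays, and 1 value per spot and array was read from the deposited table. As deposited by the authors, the values are taken as natural log (ln) ratios of the channels. How the authors scanned, background-corrected and normalized them is not stated in the labels, nor do these name a numerator. The series title names a low scan. The base was inferred: 106 pairs of repeated values were separated by 2 ln k, with k a whole number up to 10, against 4.75 pairs at shifted distances (base 2: 3 against 3.35). A constant multiple is not excluded. Fold values rest on this reading.

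Values were converted to log2, and each array was centred on its median. Of 19200 spots, 897 were empty. Spread, Pearson and Spearman correlation and the correlation about the array median were computed with Python 3.11.15, numpy 2.4.6 and pandas 2.3.3, and tested on simulated data. No count, intensity or depth was available, so signal over background is unknown, and the number of arrays limits the precision.

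Genes came from the platform's gene table, with names updated from RefSeq for Zm-B73-REFERENCE-NAM-5.0, whose coordinates were not used. The named genes are the 11 probes, the 5 most and 3 least like genes for each profile (genes with at least 2 probes, without MNB1b), and the 3 widest probes of each list, with all probes of wall structural proteins. Names that matched a list by their letters but stand for, or may stand for, other proteins (such as AGP2, grp1 and prp2) were left out. Members and lists were chosen with earlier results of these data known. No array could be grouped, so no comparison of genotypes was made. Alternatives are given in the closing section.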

Additional observations from a re-analysis of the deposited data

How the results depend on the processing

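The mean correlation of HRGP probes and that of the profiles with all probes kept their sign when 1 choice was changed. Without the widest probes and in S16 to S27 alone, both changed together, the Spearman correlation of the profiles was -0.21. The agreement within expa2 was -0.29 without the widest probe and 0.43 without probe 6065, the latter chosen after seeing the data, as was the omission of probe 2499. With the interquartile range, narrower by construction, 3 HRGP probes and 1 expa2 probe had a spread of at least 1. The share was 25.2% over all probes and 14.6% over those with 1 named gene. The median spreads were then 0.83 for HRGP and 0.86 for expa2. At a threshold of 1.5, which 51.7% of all probes reached, 4 HRGP probes passed. Without the widest probe the median spread of expa2 was 1.502. Of the 5 genes most like HRGP, 3 were shared with blocks centred, rescaled arrays or without the widest probe, 2 with nearest spots centred or S16 to S27 alone, 1 with S1 to S15 alone, and 2 to 5 with an array left out. Of the 5 most like expa2, 3 were shared with blocks or nearest spots centred, rescaled arrays, most frequent values as missing, S1 to S15 alone or without the widest probe, 2 with S16 to S27 alone, 1 with Spearman, and 2 to 5 when arrays were omitted singly. The likeness of hir3 to expa2 was -0.026 in S1 to S15 alone, and ran from -0.018 (without S27) to 0.754 (without S5) when arrays were omitted singly. Where no construction is named, the cause was not tested. No paired analysis was possible because the arrays have no groups. Signal over background was not available, so how far dim spots limit these values is unknown.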
